A study of Mus musculus with 24 samples.

Results

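The cytosolic ribosomal protein genes were followed in mouse livers with non-alcoholic steatohepatitis (NASH) given vehicle, vutiglabridin or semaglutide. They were taken as the rows of the deposited expression table whose gene name starts with Rpl or Rps and carries a ribosomal protein number, together with Rpsa and the P-stalk genes Rplp0, Rplp1 and Rplp2. The ribosomal S6 kinases (names starting Rps6k) and pseudogene names were left out. This gave 83 of the 14293 genes in the table, 49 with large-subunit (Rpl) and 34 with small-subunit (Rps) names. Of the 83 genes, 82 passed the filter of at least 0.5 FPKM in at least 8 libraries and were tested among 11562 genes. FPKM divides the fragments of a gene by its transcript length and the depth of the library, so levels of different genes can be compared per length. Rps19bp1, a binding partner of the Rps19 protein, and Rpl7l1, a homologue of Rpl7, matched by name but are not counted here as ribosomal subunits. Rack1 and Fau, which also supply ribosomal proteins, have other names and are given separately.

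The study placed 24 liver RNA libraries in 3 groups of 8, and the labels give no more for each group than liver tissue and the agent. Nothing in the labels states the strain, sex, age, diet, dose or duration. Vutiglabridin is named in the series title as an agonist of paraoxonase-2, and semaglutide is a glucagon-like peptide receptor agonist used in diabetes and obesity. The labels do not name separate animals, so p-values measure the spread between these libraries, which may be in part technical.

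Each cytosolic ribosome joins a small subunit, which reads the mRNA, to a large subunit, which forms the peptide bonds. Nearly all of their proteins come from single expressed genes whose mRNAs start with a run of pyrimidines, the 5′ terminal oligopyrimidine (TOP) tract, through which mTORC1 and Larp1 control their translation. Liver, which secretes most plasma proteins, keeps these mRNAs abundant.

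The start of the transcript is where this shared control sits, so the 30 bases centred on the RefSeq start (build GRCm38.p6) are shown for 8 of the genes whose levels differed between groups below. Rps27l has 2 starts, with longest runs of 9 and 4 bases, and Rpl21, Rpl3, Rpl23a and Rplp1 are not shown. They run 5′ to 3′ on the gene's strand, with 15 bases on each side of the start, and capitals mark the longest unbroken run of C and T. The positions are chr9:120571502-120571531 (+) for Rpl14, chr17:33955651-33955680 (-) for Rps18, chr9:64173372-64173401 (+) for Rpl4, chr10:128626492-128626521 (-) for Rps26, chrX:37085208-37085237 (-) for Rpl39, chr11:101442230-101442259 (+) for Rpl27, chr12:28635939-28635968 (-) for Rps7 and chr5:107900513-107900542 (+) for Rpl5.
Rpl14: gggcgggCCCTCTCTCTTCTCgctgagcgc
Rps18: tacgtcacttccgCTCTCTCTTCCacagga
Rpl4: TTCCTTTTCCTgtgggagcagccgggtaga
Rps26: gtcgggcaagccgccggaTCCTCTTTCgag
Rpl39: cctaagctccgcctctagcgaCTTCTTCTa
Rpl27: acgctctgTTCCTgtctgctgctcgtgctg
Rps7: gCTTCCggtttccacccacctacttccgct
Rpl5: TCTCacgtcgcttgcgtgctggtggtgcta
The run was 14 bases in Rpl14, 11 in Rps18 and Rpl4, 9 in Rps26, 8 in Rpl39, 5 in Rpl27 and Rps7, and 4 in Rpl5. Of the genes shown that rose with semaglutide, Rpl14, Rps18 and Rps26 carried a run of at least 8 bases, and Rps7 and Rpl5 did not. In Rpl4, Rpl27, Rps7 and Rpl5 the marked run lay wholly before the start. In Rpl14 and Rps18 it began before the start. The Rpl27 window also lies upstream of the gene position given below. These run lengths are therefore not lengths of TOP tracts.

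Over all promoter entries, 63 of the 83 genes had at least one, 74 entries in total, and 28 of these (37.8%) held a run of at least 8 pyrimidines on the sense strand of that window, against 12% of all 32851 RefSeq promoters. On the antisense strand the shares were 4.05% and 13.2%. Runs of at least 10 on the sense strand were in 27.0% of the ribosomal protein entries and in 5.34% of all. The letters CCGGAAG, the core of an ETS-type site, were found on either strand of the 300-base promoter in 35.1% of the entries and in 8.86% of all promoters. The E-box letters CACGTG, a palindrome that reads alike on both strands and is recognised by MYC among others, were in 10.8% and 7.15%. Matches to CCGGAAG and CACGTG were searched separately and may lie in the same promoter. These are matches of letters, not bound sites.

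In vehicle livers, 75 of the 83 genes had a mean between 10 and 200 FPKM, and the median of the means was 55.1 FPKM. Rplp1, an acidic protein of the P-stalk that recruits elongation factors, was the highest at 638 ± 87.5 FPKM (SD, n = 8). It was followed by Rps15, a protein of the small-subunit head, at 256 ± 45.9 FPKM, by Rpl4, which lines the peptide exit tunnel, at 248 ± 11.7 FPKM, by Rpl8, near the peptidyl transferase centre, at 190 ± 19.6 FPKM, and by Rplp0, the base of the P-stalk, at 163 ± 10.9 FPKM. Rplp1 stood above the rest in every vehicle library, while the ranges of Rps15 and Rpl4 overlapped. Equal amounts of nearly all these proteins enter each ribosome, but the mRNA values spanned more than 3 orders of magnitude. That span rested on Rpl24, Rps10, Rps27rt and Rpl36al, with vehicle means of 0.335 to 1.80 FPKM. The next lowest gene, Rpl13a, had 7.20 FPKM. Reads of these genes can fit other copies (below), and the part of read assignment in their low values was not tested.

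The other P-stalk protein, Rplp2, had 58.6 ± 11.3 FPKM in vehicle livers. Rpsa, the small-subunit protein also known as the laminin receptor, had 63.5 ± 4.33 FPKM.

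**Figure D1:**
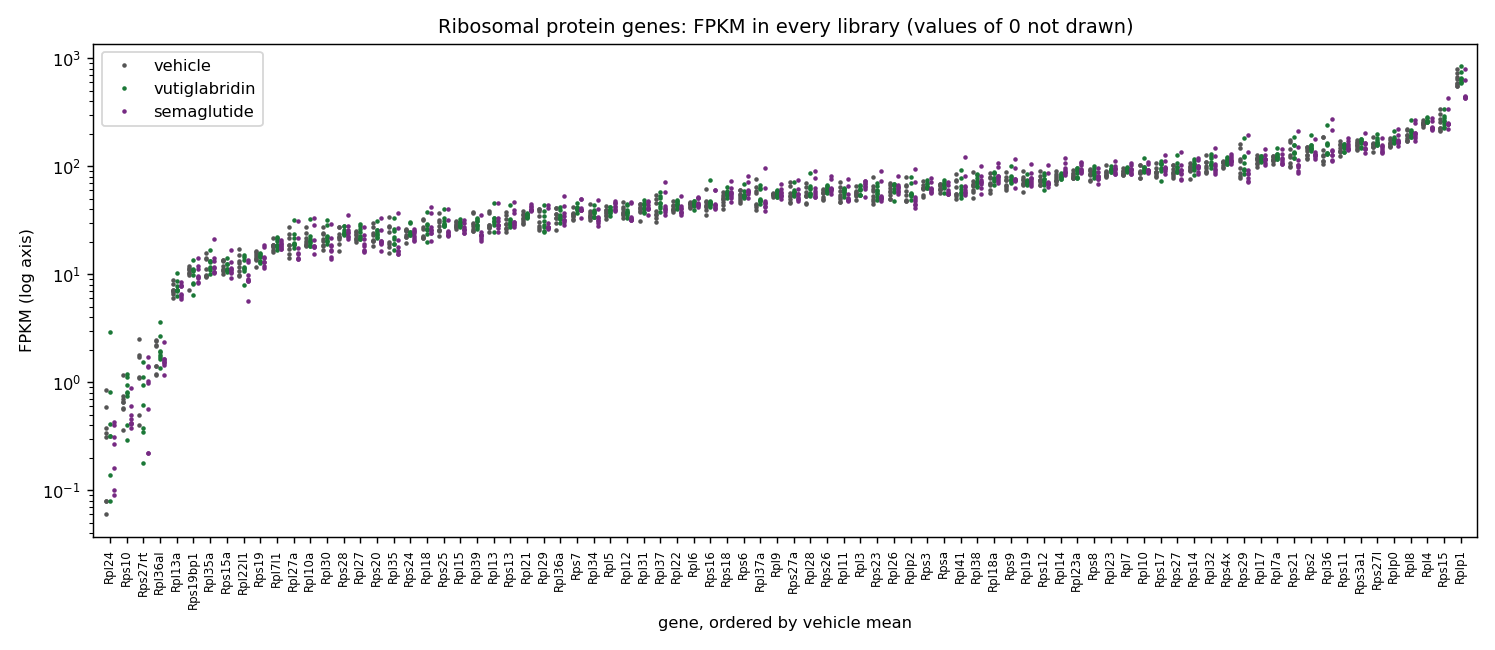
FPKM (log axis) of all but 1 of the 83 ribosomal protein genes in every library, ordered by vehicle mean, with vehicle in grey, vutiglabridin in green and semaglutide in purple. Rplp1 is highest with a vehicle mean of 638 FPKM, Rpl24 and Rps10 are lowest with vehicle means of 0.335 and 0.68 FPKM, and the 3 groups lie over one another for most genes.

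At the low end, Rpl24, which bridges the subunits, had a vehicle mean of only 0.335 FPKM and a median of 0.325, 0.32 and 0.215 FPKM in vehicle, vutiglabridin and semaglutide libraries. It reached 0.5 FPKM in 2 vehicle, 2 vutiglabridin and 0 semaglutide libraries and was not tested. Rps10, near the mRNA entry of the small subunit, had a vehicle mean of 0.68 FPKM, and Rpl13a, a large-subunit protein with a role in translation silencing, 7.20 FPKM. All 3 are core ribosomal proteins. Rpl24 and Rps10 lay far below most of the others, while Rpl13a, at 8.75 FPKM in its highest vehicle library, came close to Rpl35a, whose lowest was 9.34 FPKM.

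Ribosomal protein genes have many processed copies in the mouse genome, and a read that fits several copies can be given to any of them by the authors' counting. Each coding sequence was therefore cut into all its 50-base stretches and compared with the transcripts of every other annotated gene in GENCODE M21. A median of 90.1% of the stretches of a gene were also found in another gene's transcripts. At least 50% were shared in 69 of the 83 genes, at least 90% in 42, and 0% in 2. For Rpl24 the share was 100%, for Rps10 89.5%, and for Rpl21 100%, spread over 82 other genes. Levels of single members are therefore uncertain. Across the 83 genes, vehicle level and shared percentage had a Spearman rho of -0.28, and across the 82 tested genes vehicle level and exon length had a rho of -0.46. Both are given as descriptions across genes that share libraries and chemistry.

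The expressed variants of a gene were unequal. Rps27l, a p53-responsive relative of Rps27, had 158 ± 15.1 FPKM in vehicle livers against 89.5 ± 9.15 FPKM for Rps27, and their coding sequences were identical at 61.0% of aligned positions. Rps27rt, whose coding sequence equalled that of Rps27 at 100% of positions, had 1.14 ± 0.841 FPKM and was at 0 in 1 vehicle and 1 vutiglabridin library. Reads from Rps27 and Rps27rt cannot be told apart over the coding sequence.

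Rpl22, which also binds RNA outside the ribosome, had 41.3 ± 3.13 FPKM and its variant Rpl22l1 12.5 ± 2.58 FPKM, with 68.2% identity. Rpl36a and Rpl36al, 87.7% identical, had 34.3 ± 5.25 and 1.80 ± 0.553 FPKM. Rpl7 had 87.4 ± 5.10 FPKM and Rpl7l1 18.3 ± 1.65 FPKM, with 54.0% identity. In each of these 3 pairs the canonical gene was the higher one in every group, whereas in the Rps27 family Rps27l was the higher one. Coding stretches shared with other genes made up 100% in Rps27 and 27.1% in Rps27l, and 31.0% in Rpl22 and 82.6% in Rpl22l1. In Rpl7 and Rpl7l1 they made up 77.5% and 21.9%, and in both Rpl36a and Rpl36al 100%. The part of this in the order of the copies was not tested.

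Summed over the 83 genes, the level was 5897 ± 636 FPKM in vehicle, 6285 ± 518 FPKM in vutiglabridin and 6001 ± 1012 FPKM in semaglutide libraries. The lowest, median and highest sums were 5162, 5726 and 7016 FPKM in vehicle, 5708, 6156 and 7413 FPKM in vutiglabridin, and 5147, 5612 and 8138 FPKM in semaglutide. All 3 groups overlapped. As a share of all FPKM in the table the sum was 1.79 ± 0.183% in vehicle, 1.71 ± 0.140% in vutiglabridin and 1.74 ± 0.244% in semaglutide. The order of the groups thus depended on the scale, since vutiglabridin had the highest mean sum and the lowest mean share.

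**Figure D2:**
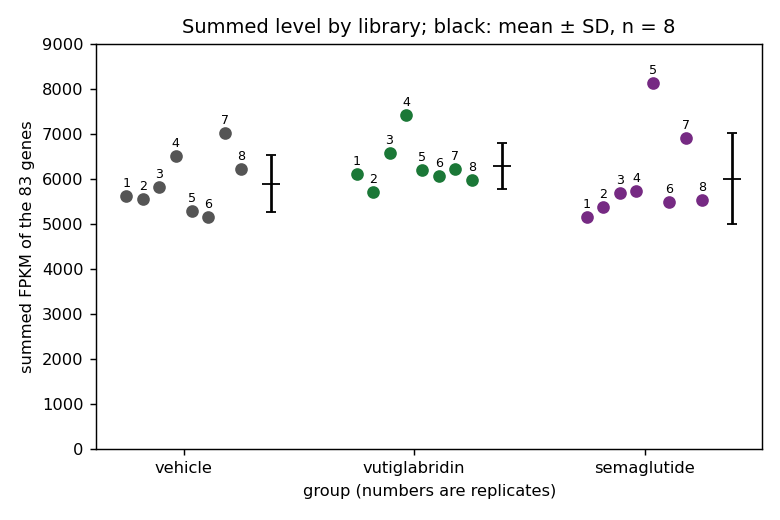
Summed FPKM of the 83 ribosomal protein genes in each library, numbered by replicate, with the mean ± SD of each group (n = 8) in black. The groups overlap, and semaglutide replicate 5 at 8138 FPKM is the highest of the 24 libraries.

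The semaglutide columns of the table were written differently from the others, with a trailing space in all 14293 cells of each of the 8 columns. A difference in handling of these files and the drug cannot be told apart. From the steps that single fragments make in low FPKM values, libraries held about 11.96 to 19.8 M (mega) fragments in vehicle, 5.97 to 15.3 M in vutiglabridin and 9.31 to 12.4 M in semaglutide.

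The tissue also differed between groups in its markers. Of 8 hepatocyte markers, 4 rose with vutiglabridin and 5 with semaglutide, and their summed level ran from 30427 to 38164 FPKM in vehicle, 33627 to 48413 in vutiglabridin and 34178 to 45836 in semaglutide. Of 6 macrophage markers, 4 and 3 fell, with sums of 264.8 to 668 FPKM, 164 to 364 FPKM and 171 to 323 FPKM. Of 5 stellate and fibroblast markers, 2 and 4 fell, with sums of 108 to 155 FPKM, 67.2 to 109 FPKM and 66.6 to 98.0 FPKM. With vutiglabridin 2 of 5 cholangiocyte, 1 of 2 tested B cell markers and 1 of the 2 tested T and NK cell markers fell. Of 4 endothelial and 2 tested neutrophil markers, 0 passed. With semaglutide 1 of 4 endothelial markers rose and 0 of the markers of those other 4 types passed. Of 5 listed T and NK cell markers 4 had values. None of the markers with values was at 0 in every library. In whole tissue, fewer cells of a type and less RNA per cell cannot be told apart, and the part of these shifts in the values below was not tested.

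With vutiglabridin against vehicle, no ribosomal protein gene passed the test, which does not show that none changed. By limma, 0 of 82 genes passed an adjusted p of 0.05, where 15.3% of all tested genes did, 6.53% higher and 8.78% lower. None of the 82 separated the groups without overlap, against 1.74% of all. Without adjustment, 6 of 82 had a p under 0.05, against 28.5% of all genes. The differences ran from -0.34 for Rps27rt to 0.22 for Rpl37, on the scale of log2(FPKM + 1) used for every difference here, which understates changes of genes with low FPKM. The median half-width of a gene's 95% interval was 0.18. A difference of 1 or more on this scale was seen in 0 of the 82 genes in any of the 3 comparisons.

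The differences leaned the same way but were small: 74 of 82 were above 0, against 53.7% of all tested genes, with a median of 0.09 against 0.01 over all tested genes. This direction flipped with the scale. Rescaled to equal totals (TPM), 13 of 82 were above 0 (19.2% of all genes) and the median was -0.06, while the median of all tested genes went from 0.01 to -0.11. With quantile normalization 27 of 82 were above 0 (56.3% of all genes), and the median was -0.03.

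The lowest p-values were those of small-subunit proteins. Rps7, a small-subunit protein that also binds Mdm2, had 31.5, 35.2 and 42.0 FPKM (lowest, median and highest) in vehicle libraries. In vutiglabridin libraries it had 37.2, 40.8 and 45.3 FPKM. The groups overlapped, since vehicle replicate 7 lay among the vutiglabridin values. The difference was 0.20 ± 0.07 (SE; adjusted p = 0.0576, limma). Without any one of vehicle replicate 7 or semaglutide replicates 1, 5 or 7, whose spread enters the fit, the adjusted p of Rps7 was between 0.0308 and 0.0415.

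Rps18, in the head of the small subunit, had 40.5, 49.4 and 57.5 FPKM in vehicle and 50.5, 56.7 and 64.7 FPKM in vutiglabridin. The difference was 0.21 ± 0.08 (adjusted p = 0.0718, limma), and the adjusted p was 0.0461 without vehicle replicate 7 and 0.0405 without semaglutide replicate 5. Rps2, at the mRNA entry channel, differed by 0.20 ± 0.08 (adjusted p = 0.101, limma). In Rps2, vutiglabridin replicate 4 was the highest library of its group, at 196 FPKM. With the GC and exon length trends of each library removed, the adjusted p was 0.0411 for Rps7, 0.0158 for Rps18 and 0.00681 for Rps2, at differences of 0.19, 0.21 and 0.22, and with median centring it was 0.0366 for Rps7 and 0.0471 for Rps18.

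With semaglutide against vehicle, a few genes moved in both directions. This comparison uses the same vehicle libraries as the one above. By limma 8 of 82 rose and 2 fell, 12.2% of the genes against 27% of all tested genes, where 14.3% rose and 12.7% fell. The median difference was 0.03, against -0.01 over all tested genes, and it was -0.02 after rescaling to TPM. The genes that rose were Rpl21, Rpl14, Rpl3, Rps26, Rpl23a, Rps7, Rps18 and Rpl5, by 0.20 to 0.30, and the 2 that fell were Rplp1 and Rpl39.

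**Figure D3:**
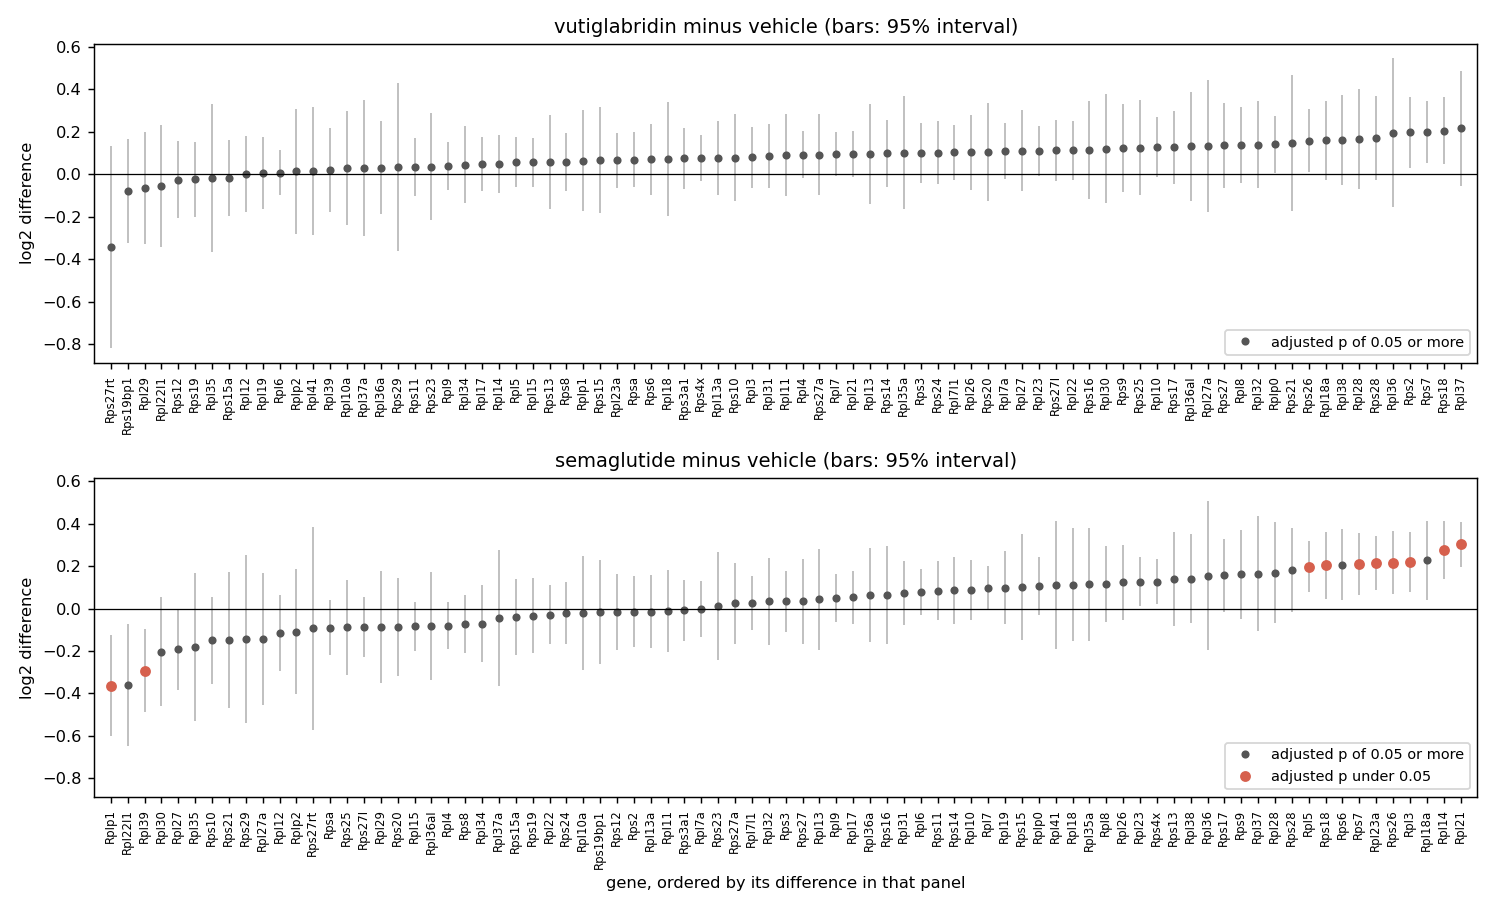
Difference of all but 1 of the 82 tested genes from vehicle, on the log2(FPKM + 1) scale, with 95% intervals, ordered within each panel, and in red where the adjusted p was under 0.05. With vutiglabridin 74 of the 82 tested genes lie above 0 (13 of 82 after rescaling to TPM) and no point is red, and with semaglutide 8 are red above 0 and 2 below (2 and 5 in TPM).

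Rpl21, a large-subunit protein, separated the groups. It had 29.0, 32.5 and 38.1 FPKM (lowest, median and highest) in vehicle, 33.3, 35.6 and 36.9 FPKM in vutiglabridin, and 38.4, 40.0 and 45.1 FPKM in semaglutide libraries. Every semaglutide library was above every vehicle and every vutiglabridin library, with vehicle replicate 7 the nearest. The rise over vehicle was 0.30 ± 0.05 (adjusted p = 0.000119, limma). It was the 1 gene of the 82 whose semaglutide and vehicle values did not overlap, against 5.83% of all tested genes. The gene lies at chr5:146832890-146837032 (+) in GENCODE M21 (GRCm38), the source of all gene positions here.

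Rpl14, a large-subunit protein whose pyrimidine run is the longest printed above, had 68.4, 76.8 and 90.4 FPKM in vehicle and 83.1, 90.4 and 118 FPKM in semaglutide. The highest vehicle library, replicate 7, lay within the semaglutide range. The rise was 0.27 ± 0.07 (adjusted p = 0.00326, limma). Under TPM, quantile normalization and centring on the ribosomal protein genes themselves, the rises of Rpl14 were 0.22, 0.26 and 0.22, each with an adjusted p under 0.05.

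Rpl23a, which docks factors at the exit of the peptide tunnel, had 78.2, 81.6 and 92.2 FPKM in vehicle and 86.5, 93.3 and 109 FPKM in semaglutide (difference 0.21 ± 0.06, adjusted p = 0.0126, limma). Rpl5, which with Rpl11 and 5S RNA can bind Mdm2, had 32.6, 37.1 and 43.3 FPKM in vehicle and 38.7, 42.6 and 47.9 FPKM in semaglutide (difference 0.20 ± 0.06, adjusted p = 0.0125, limma). Rpl3, at the peptidyl transferase centre, had 48.6, 55.9 and 65.9 FPKM and 51.7, 66.9 and 73.5 FPKM (difference 0.22 ± 0.07, adjusted p = 0.0212, limma). All 3 overlapped between groups, and in Rpl3 semaglutide replicate 3, at 51.7 FPKM, lay low among the vehicle values. On the TPM scale their adjusted p-values were 0.0586 for Rpl23a, 0.0717 for Rpl5 and 0.0935 for Rpl3, and centred on the ribosomal protein genes they were 0.298, 0.379 and 0.224.

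The 3 small-subunit genes that rose were less firm. Rps26, which contacts the mRNA at the exit channel, had 49.0, 56.3 and 62.1 FPKM in vehicle and 54.8, 61.9 and 81.9 FPKM in semaglutide (difference 0.22 ± 0.07, adjusted p = 0.0268, limma). Rps7 had 32.9, 39.4 and 50.1 FPKM in semaglutide (difference 0.21 ± 0.07, adjusted p = 0.0306, limma). Rps18 had 47.0, 56.1 and 72.8 FPKM in semaglutide (difference 0.20 ± 0.08, adjusted p = 0.0499, limma). In all 3 genes the highest libraries were semaglutide replicates 5 and 7. Without those 2 libraries the differences were 0.12 for each of Rps26, Rps7 and Rps18, with adjusted p-values of 0.134, 0.157 and 0.205. On the TPM scale the adjusted p-values were 0.0591, 0.113 and 0.113. Leaving out single libraries also ended these calls. The adjusted p of Rps26 was 0.05 to 0.0584 without any one of vehicle replicates 1, 5 or 6 or semaglutide replicates 5 or 7. That of Rps7 was 0.0567 to 0.0678 without vehicle replicate 5 or 8 or semaglutide replicate 5 or 7. That of Rps18 was above 0.05 in 19 of 24 such fits, at most 0.108 (without vehicle replicate 5).

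Rplp1, the most abundant of the genes, fell with semaglutide. It had 548, 614 and 787 FPKM in vehicle, 587, 644 and 839 FPKM in vutiglabridin, and 429, 438 and 792 FPKM in semaglutide libraries. In semaglutide 6 of 8 libraries lay between 429 and 444 FPKM, below every vehicle library, while replicates 5 and 7 had 792 and 622 FPKM. The fall was -0.36 ± 0.12 (adjusted p = 0.0214, limma), and -0.54 without those 2 libraries (adjusted p = 6.2e-05). By a Wilcoxon rank test the adjusted p of Rplp1 was 0.107, and with GC and length trends removed the fall was -0.23 (adjusted p = 0.00630).

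Rpl39, a small basic protein of the exit tunnel, had 24.98, 28.4 and 37.7 FPKM in vehicle and 20.4, 23.1 and 35.5 FPKM in semaglutide. Semaglutide replicate 5, at 35.5 FPKM, lay among the vehicle values, and the other libraries of the group, at 24.4 FPKM or less, lay below every vehicle library. The fall of Rpl39 was -0.29 ± 0.10 (adjusted p = 0.0247, limma), and its adjusted p was 0.0511 to 0.0593 without any one of vehicle replicate 7 or 8 or semaglutide replicate 1 or 8. Without semaglutide replicates 5 and 7 together the difference was -0.38 (adjusted p = 0.00156).

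Among the genes that did not pass, Rpl22l1 had 9.72, 12.3 and 17.1 FPKM in vehicle and 5.61, 8.92 and 13.7 FPKM in semaglutide, a difference of -0.36 ± 0.14 (adjusted p = 0.0569, limma). Its adjusted p was 0.0145 with the replicate number as a block, 0.0266 in TPM, and 0.0203 to 0.0443 without any one of vehicle replicates 3 or 6, vutiglabridin replicate 2, or semaglutide replicates 5 or 7. Over all 24 fits that left out 1 library, the adjusted p of Rpl22l1 reached 0.136. Its partner Rpl22 differed by -0.03 ± 0.07 (adjusted p = 0.792). Rps6, the substrate of the S6 kinases downstream of mTORC1, had 45.9, 52.8 and 60.3 FPKM in vehicle and 51.2, 58.4 and 81.9 FPKM in semaglutide. Its difference was 0.21 ± 0.08 (adjusted p = 0.0622), and without any one of vehicle replicates 4 or 7, vutiglabridin replicate 4 or semaglutide replicate 1 the adjusted p of Rps6 was 0.0331 to 0.0475. It was 0.0328 with quantile normalization, 0.0486 with median centring and 0.0457 with sample weights, and with GC and length trends removed Rps6 differed by 0.32 (adjusted p = 0.000161). Over all 24 fits that left out 1 library, the adjusted p of Rps6 reached 0.132. Without semaglutide replicates 5 and 7 together, a choice made after seeing the data, Rps6 differed by 0.10 (adjusted p = 0.288, limma). The stalk proteins Rplp0 and Rplp2 differed by 0.11 ± 0.07 (adjusted p = 0.242) and -0.11 ± 0.14 (adjusted p = 0.619), and Rpsa by -0.09 ± 0.06 (adjusted p = 0.310). With GC and length trends removed Rplp0 differed by 0.22 (adjusted p = 9.09e-05, and 0.000644 with the replicate block). Without semaglutide replicates 5 and 7 together, Rplp0 differed by 0.03 (adjusted p = 0.746, limma). Rpl10, a large-subunit protein added late in assembly, differed by 0.09 ± 0.07 (adjusted p = 0.364).

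On the log2(FPKM + 1) scale, which understates changes at low FPKM, the copies and the genes at the edges of the set moved little. Mean Rps10 was 0.68 FPKM in vehicle and 0.509 FPKM in semaglutide, where 7 and 3 libraries reached 0.5 FPKM. With semaglutide Rps27 differed by 0.03 ± 0.10, Rps27l by -0.09 ± 0.07, Rps27rt by -0.09 ± 0.23, Rpl36a by 0.06 ± 0.11, Rpl36al by -0.08 ± 0.12, Rpl7 by 0.10 ± 0.05 and Rpl7l1 by 0.03 ± 0.06. Rps19bp1 differed by -0.02 ± 0.12, Rps10 by -0.15 ± 0.10 and Rpl13a by -0.01 ± 0.08. None of these passed the test, and all the pairs of groups overlapped.

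The other genes that passed in either comparison with semaglutide lie at chr9:120571444-120574654 (+) for Rpl14, chr11:78180932-78183584 (-) for Rpl23a, chr5:107900502-107909005 (+) for Rpl5, chr15:80077791-80091868 (-) for Rpl3, chr10:128624534-128626747 (-) for Rps26, chr12:28630854-28635953 (-) for Rps7 and chr17:33951999-33956001 (-) for Rps18. Rplp1 lies at chr9:61913284-61914542 (-), Rpl39 at chrX:37082520-37085402 (-), Rpl27 at chr11:101442298-101445529 (+), Rpl4 at chr9:64173375-64178666 (+) and Rps27l at chr9:66946086-66949516 (+). Of the coding stretches of 50 bases, 77.7% were shared with another gene's transcripts in Rpl14, 60.4% in Rplp1, 86.5% in Rpl39, 73.0% in Rps26, 100% in Rpl23a and 27.1% in Rps27l.

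**Figure D4:**
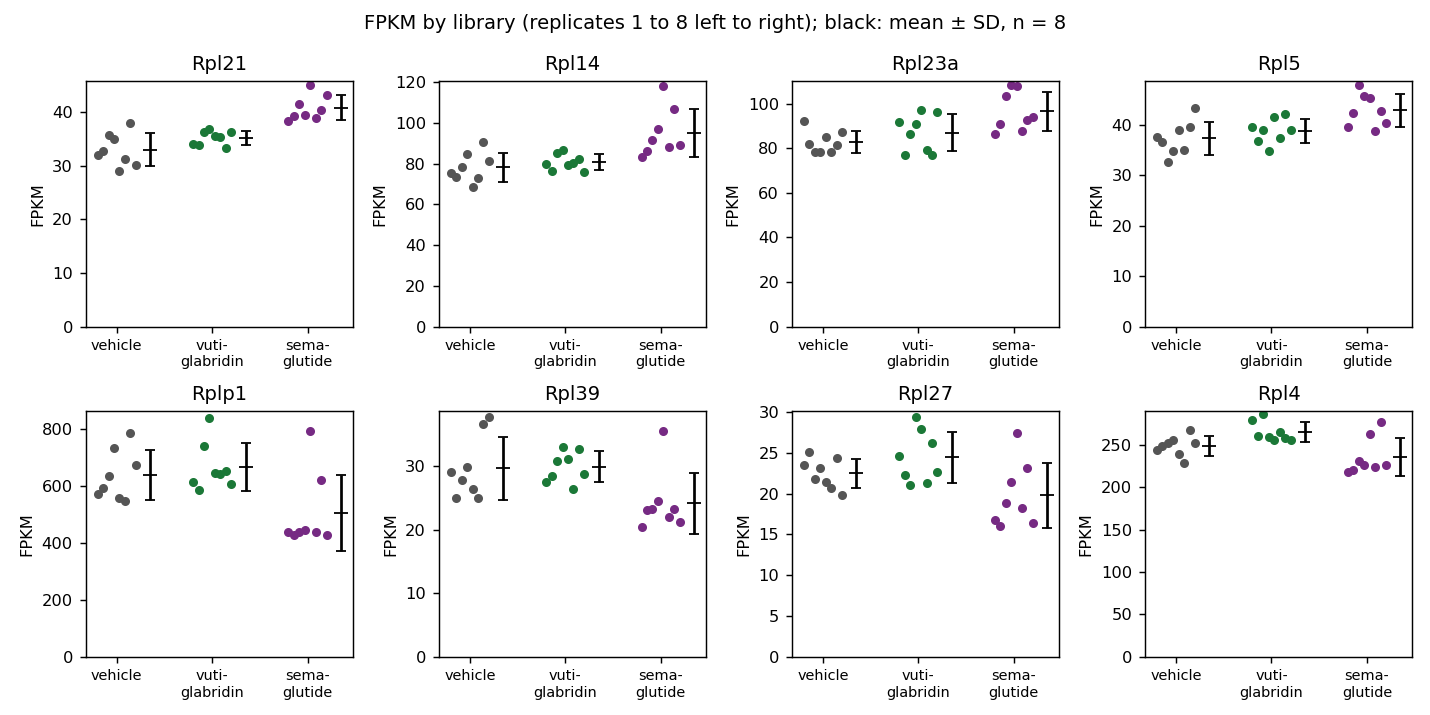
FPKM of 8 ribosomal protein genes in every library, with the mean ± SD of each group (n = 8) in black. Rpl21 is higher in all semaglutide libraries than in all others, and for Rplp1 the semaglutide libraries lie at 429 to 444 FPKM except replicates 5 and 7, at 792 and 622 FPKM.

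The direct comparison of the drugs, which shares its libraries with both comparisons against vehicle, gave 5 genes higher and 2 lower with vutiglabridin than with semaglutide. These were 8.54% of the 82 genes, against 24.4% of all tested genes, where 11.9% were higher and 12.6% lower. Rpl21 differed by -0.21 ± 0.05 (adjusted p = 0.00491, limma) and was the 1 gene without overlap, against 3.4% of all tested genes. Centred on the ribosomal protein genes themselves, Rpl21 differed by -0.22 (adjusted p = 0.0902). Rpl14 differed by -0.23 ± 0.07 (adjusted p = 0.0146, limma), with an adjusted p of 0.0683 without semaglutide replicates 5 and 7.

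The 5 genes higher with vutiglabridin than with semaglutide were Rplp1, Rpl39, Rpl27, Rps27l and Rpl4. Rplp1 differed by 0.43 ± 0.12 (adjusted p = 0.00833) and Rpl39 by 0.31 ± 0.10 (adjusted p = 0.0182), both by limma. With quantile normalization Rplp1 differed by 0.27 (adjusted p = 0.127), and its adjusted p was 0.0836 by a Wilcoxon test. Rpl39 differed by 0.21 in TPM (adjusted p = 0.0703), and its adjusted p was 0.0545 with quantile normalization and 0.0535 by a Wilcoxon test. Rpl27, a large-subunit protein, had 21.1, 23.6 and 29.4 FPKM with vutiglabridin and 16.0, 18.6 and 27.4 FPKM with semaglutide, and differed by 0.30 ± 0.09 (adjusted p = 0.0175). In TPM the difference of Rpl27 was 0.21 (adjusted p = 0.0745), with GC and length trends removed it was 0.19 (adjusted p = 0.0708), and by a Wilcoxon test the adjusted p was 0.124. Semaglutide replicate 5 was the highest of its group for Rpl27 and lay inside the vutiglabridin range.

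Rpl4 had 255, 260 and 286 FPKM with vutiglabridin and 217, 226 and 277 FPKM with semaglutide, and differed by 0.17 ± 0.05 (adjusted p = 0.0203, limma). With semaglutide 6 of 8 values lay below every vutiglabridin value, and replicates 5 and 7 lay within that range. The direction of Rpl4 turned with quantile normalization, to -0.02 (adjusted p = 0.864), and in TPM it differed by 0.07 (adjusted p = 0.374). Rps27l differed by 0.20 ± 0.07 (adjusted p = 0.0349), and its adjusted p was 0.0555 to 0.0754 without any one of vutiglabridin replicates 1, 4 or 7 or semaglutide replicates 1, 2, 6 or 8. In TPM Rps27l differed by 0.10 (adjusted p = 0.208) and with quantile normalization by 0.06 (adjusted p = 0.430).

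By subunit, the genes that passed with semaglutide against vehicle were 3 higher and 0 lower of 33 small-subunit genes, and 5 higher and 2 lower of 47 large-subunit genes. The called shares were 9.09% and 14.9%, against 27% of all tested genes, where 14.3% rose and 12.7% fell. The medians of the small-subunit and large-subunit genes were 0.02 and 0.05 on the FPKM scale and -0.03 and -0.0031 on the TPM scale. Whether the subunits differed from each other was not tested.

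A pair of libraries weighed on these counts. Without semaglutide replicates 5 and 7 together, a choice made after seeing the data, semaglutide against vehicle had 4 genes higher and 13 lower. Of all genes 29.6% were then called in either direction. Vutiglabridin against semaglutide had 24 higher and 1 lower (26.9% of all genes called in either direction). Vutiglabridin against vehicle then had 2 higher and 0 lower (16.0% of all genes in either direction), since the spread is shared by all groups in the fit. After removing each library's trend with GC content and exon length, the counts went the other way, to 27 higher and 3 lower for semaglutide against vehicle, where 14% and 14.1% of all genes were. They were 6 higher and 0 lower for vutiglabridin against vehicle (8.87% and 9.96% of all genes), and 3 higher and 10 lower for vutiglabridin against semaglutide (12.9% and 11.4%). On the TPM scale the counts were 2 higher and 5 lower for semaglutide against vehicle (10.6% and 18.8% of all genes), and 1 higher and 8 lower between the drugs (5.09% and 19.6%).

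The ribosomal protein genes went up and down together from library to library within each group. After subtracting group means, the median correlation of a pair of the 82 genes over 24 libraries was 0.68, and 92.6% of the pairs were positive. The median was 0.69 among the 8 vehicle, 0.44 among the 8 vutiglabridin and 0.87 among the 8 semaglutide libraries. The first principal component held 71.6%, 53.8% and 88.4% of the variance of the genes in those groups. These are descriptions of genes that share the same libraries, depth and chemistry.

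Semaglutide replicate 5 had 78 of the 82 genes above its group mean, with a median deviation of 0.39, and semaglutide replicate 7 had 75 with a median of 0.19. Vehicle replicate 7 (75 genes, 0.23), vehicle replicate 4 (70 genes, 0.12) and vutiglabridin replicate 4 (71 genes, 0.22) stood high in their groups. Semaglutide replicate 1 had only 2 genes above its group mean, with a median of -0.20, and vehicle replicate 6 had 4, with a median of -0.17.

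**Figure D5:**
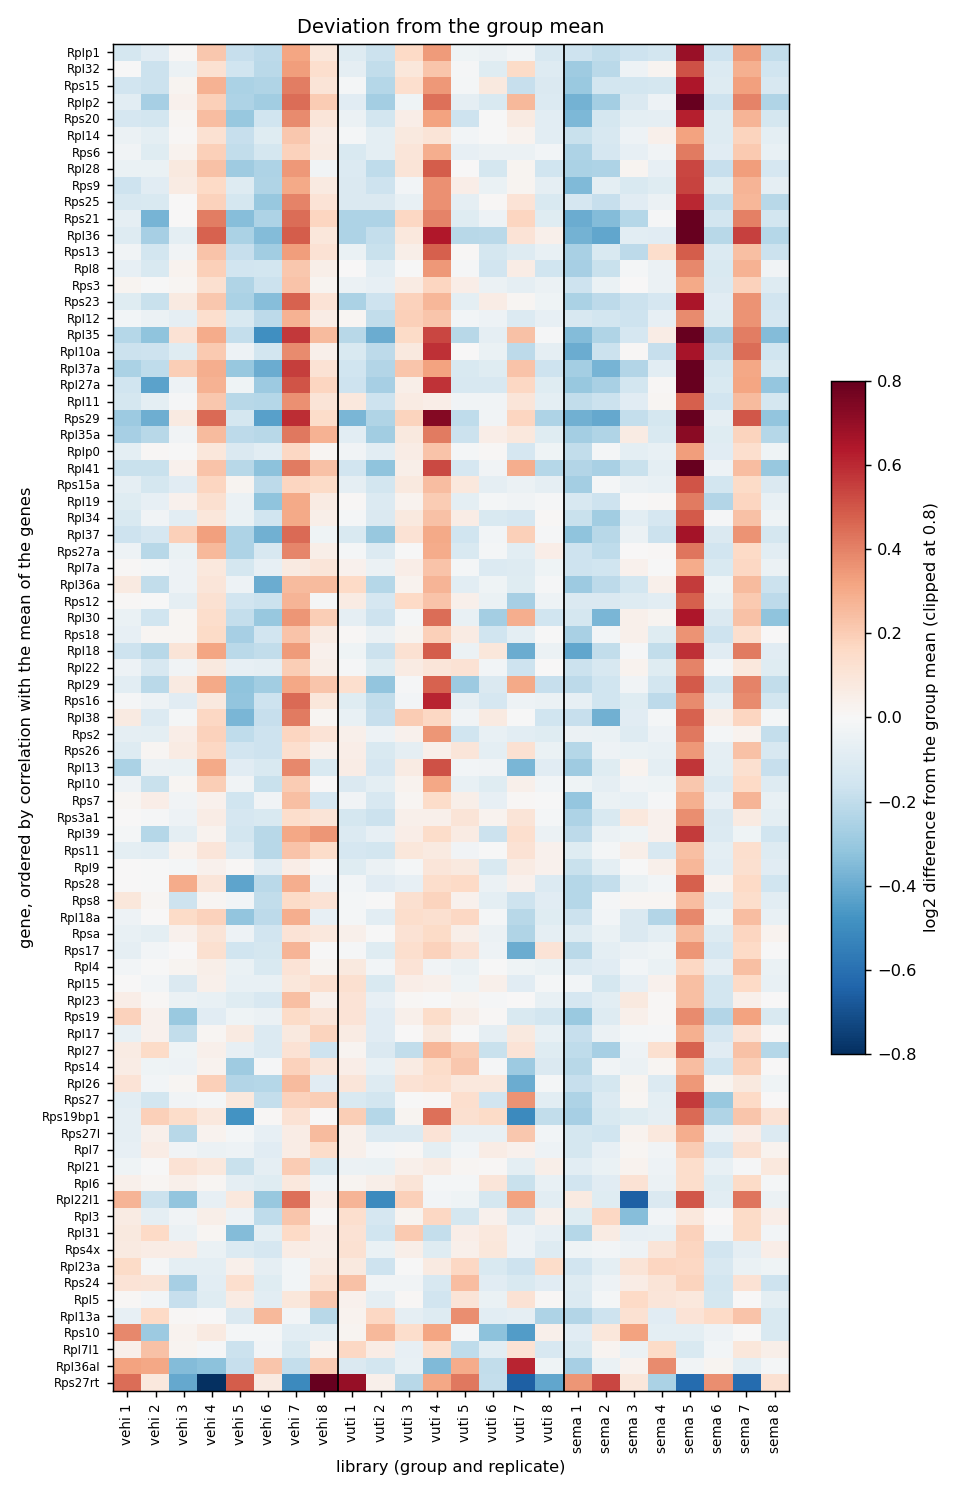
Deviation of all but 1 of the 82 tested genes from the group mean (log2(FPKM + 1), red higher and blue lower, clipped at 0.8) in the 24 libraries, with genes ordered by their correlation with the mean of the genes. Semaglutide replicates 5 and 7, vehicle replicates 4 and 7 and vutiglabridin replicate 4 are red over most rows, and the bottom rows, among them Rps27rt, Rpl36al and Rps10, do not follow.

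Other short transcripts moved with the ribosomal protein genes in the same libraries. In semaglutide replicate 5 the median deviation of other genes with exons totalling under 1000 bp was 0.31, that of other genes over 5000 bp was -0.06, and that of the mitochondrial ribosomal protein genes was 0.17. In vutiglabridin replicate 4 these were 0.19, -0.06 and 0.14, and in vehicle replicate 7 they were 0.09, -0.02 and 0.01. In semaglutide replicate 5 the summed neutrophil markers were also the highest of the group, at 12.7 FPKM, against a semaglutide median of 2.55 FPKM, while its macrophage and hepatocyte sums lay inside the range of the others. The part of transcript length or cell content in these library differences was not tested.

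The median deviation of the genes was also compared with the fragments implied for each library. Among the 8 semaglutide libraries Pearson's r was 0.82 (exact permutation p = 0.00878, adjusted over the 3 groups 0.0263) and Spearman's rho 0.64 (exact permutation p = 0.0962, adjusted 0.144). Without the 2 libraries farthest from the median depth r was 0.26, so the relation rested on those libraries. Among vehicle libraries r was 0.70 (exact permutation p = 0.0503, adjusted 0.0754) and rho 0.67 (exact permutation p = 0.0831, adjusted 0.144), with r of 0.33 without the 2 farthest. Among vutiglabridin libraries r was 0.21 (exact permutation p = 0.513) and rho 0.14 (exact permutation p = 0.752), with r of 0.24 without the 2 farthest.

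Of the 82 genes, 65 had a correlation above 0.7 with the mean of the genes over the 24 libraries after subtracting group means, led by Rplp1 (0.97), Rpl32 and Rps15 (0.96 each). Rpl13a, Rps10, Rpl7l1, Rpl36al and Rps27rt were the 5 below 0.2, and they include the lowest tested levels and the homologue Rpl7l1. The genes outside the set with the most similar pattern were Timm13 (0.95), a chaperone of mitochondrial import, Serf2 (0.94), Eef1d (0.94), a subunit of the elongation factor exchange complex, Fau (0.93) and Mif (0.93), a cytokine. Fau encodes the small-subunit protein eS30 fused to a ubiquitin-like protein.

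Neither Fau nor Rack1, a scaffold on the small subunit, passed the test in either drug. Fau had 74.9 ± 10.2 FPKM in vehicle, 82.1 ± 11.7 in vutiglabridin and 76.3 ± 17.2 in semaglutide, with adjusted p-values of 0.469 and 0.958 against vehicle by limma. Rack1 differed by 0.10 ± 0.06 with vutiglabridin (adjusted p = 0.287) and by 0.08 ± 0.06 with semaglutide (adjusted p = 0.353), both by limma.

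Genes whose mRNAs also carry a TOP tract but encode no ribosomal protein form a list that overlaps those of the initiation and elongation factors. Of 19 tested, 3 rose and 1 fell with vutiglabridin, and 5 rose and 1 fell with semaglutide, with medians of 0.10 and 0.08 on the FPKM scale and of -0.06 and 0.02 on the TPM scale. The called shares of 21.1% and 31.6% lay near those of all tested genes, which were 15.3% with vutiglabridin and 27% with semaglutide here and in the lists that follow. Pabpc1, the cytoplasmic poly(A)-binding protein, rose with semaglutide from 43.7 ± 1.93 to 54.9 ± 3.37 FPKM (0.32 ± 0.04, adjusted p = 7.76e-06, limma). Eif4b, which helps the Eif4a helicase, rose with vutiglabridin by 0.21 ± 0.06 (adjusted p = 0.0149) and with semaglutide by 0.38 ± 0.06 (adjusted p = 2.94e-05), both by limma. In TPM the difference of Eif4b with vutiglabridin was 0.05 (adjusted p = 0.511). Eef2, which moves the ribosome along the mRNA, rose from 423 ± 30.3 FPKM to 496 ± 46.6 with vutiglabridin (adjusted p = 0.0239) and to 510 ± 46.6 with semaglutide (adjusted p = 0.00457), by limma. In TPM the difference of Eef2 with vutiglabridin was 0.07 (adjusted p = 0.420), against 0.23 on the FPKM scale. Nap1l1, a histone chaperone, fell with vutiglabridin by -0.37 ± 0.09 (adjusted p = 0.00455).

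Of 36 initiation factors, 2 rose and 1 fell with vutiglabridin, and 5 rose and 2 fell with semaglutide. These were 8.33% and 19.4% of the list, against 15.3% and 27% of all tested genes. Eif3a, the largest scaffold of the eIF3 complex, had 17.4 ± 0.777 FPKM in vehicle and 25.5 ± 2.37 in semaglutide (0.52 ± 0.06, adjusted p = 1.57e-06, limma), against 17.3 ± 1.76 in vutiglabridin. Eif5 and Eif4g2 rose with semaglutide by 0.40 ± 0.07 and 0.34 ± 0.07 (adjusted p = 0.000274 and 0.000582, limma). Of 11 elongation and release factors, 1 rose with vutiglabridin and 2 with semaglutide, and 0 fell in either, which was 9.09% and 18.2% of that list.

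Of 30 tested genes of mTORC1 and its regulators, 1 rose and 0 fell with vutiglabridin, and 4 rose and 4 fell with semaglutide. These were 3.33% and 26.7% of the list, against 15.3% and 27% of all tested genes. Eif4ebp2, a repressor of cap-dependent initiation, rose with vutiglabridin by 0.32 ± 0.07 (adjusted p = 0.00195) and with semaglutide by 0.36 ± 0.07 (adjusted p = 0.000350), by limma. In TPM its difference with vutiglabridin was 0.17 (adjusted p = 0.0496). Larp1, the TOP-binding repressor, rose with semaglutide by 0.33 ± 0.07 (adjusted p = 0.00105), and Mlst8, an mTOR subunit, fell by -0.40 ± 0.07 (adjusted p = 0.000103), both by limma. Of 8 genes of the MYC family, 1 rose with vutiglabridin and 0 passed with semaglutide.

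Of 82 ribosome biogenesis factors, 1 rose with vutiglabridin, namely Rcl1, which acts in 18S rRNA processing (0.33 ± 0.07, adjusted p = 0.00117), and 6 rose and 3 fell with semaglutide, by limma. In TPM the difference of Rcl1 with vutiglabridin was 0.18 (adjusted p = 0.0464). The called shares were 1.22% and 11%, against 15.3% and 27% of all tested genes. Of 15 genes of RNA polymerase I, which makes rRNA, 0 passed with vutiglabridin and 1 rose with semaglutide (6.67%). Of 14 ribosome quality control genes, 1 rose with vutiglabridin (7.14%), and 4 rose and 2 fell with semaglutide (42.9%). Ltn1, a ubiquitin ligase of stalled nascent chains, rose with semaglutide from 3.68 ± 0.328 to 6.70 ± 0.744 FPKM (0.71 ± 0.08, adjusted p = 5.90e-07, limma).

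Set beside other large complexes, the 77 mitochondrial ribosomal protein genes had 3 rises with vutiglabridin and 3 falls with semaglutide, with medians of 0.05 and -0.04 (-0.08 and -0.09 in TPM). The 38 tested proteasome subunit genes had 9 rises and 2 falls with vutiglabridin and 0 rises and 3 falls with semaglutide, with medians of 0.16 and 0.00081 (0.0082 and -0.05 in TPM). Of all tested genes 6.53% were higher and 8.78% lower with vutiglabridin, and 14.3% and 12.7% with semaglutide. For the cytosolic ribosomal protein genes the values were 0 of 82 with vutiglabridin and 8 rises and 2 falls with semaglutide. Whether these complexes differed from one another was not tested.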

How the data were processed

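The authors deposited 1 FPKM value per gene and library. The submitters' processing notes name HISAT2, StringTie and DESeq2. No source used here gives their versions, their roles, the build or the annotation. Per the labels' protocols, RNA came from a Qiagen column kit and stranded Illumina mRNA libraries were read as 101-base pairs on a NovaSeq instrument. All 14293 gene identifiers and symbols matched GENCODE M21 (GRCm38), which supplied gene coordinates, exon lengths and GC content.

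From the deposited FPKM, log2(FPKM + 1) was fitted with limma 3.58.1 (R 4.3.3) over all 24 libraries and 3 groups, with a mean trend and 2-sided tests, for the 11562 genes reaching 0.5 FPKM in at least 8 libraries. Adjusted p-values are Benjamini-Hochberg over all tested genes within a comparison, with a threshold of 0.05. The script was tested on simulated data. Alternatives were other pseudocounts (0.1 and 0.5), filters, scalings (TPM, quantile, median and centring on the ribosomal protein genes), removal of GC and length trends, a replicate block, a robust spread estimate, sample weights, a Wilcoxon test, 2-group fits and leaving out each library. The similarity of coding sequences was computed with Biopython 1.88.

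The members, gene lists and markers were chosen with earlier results of these data known. Named genes are the 5 largest rises and falls that passed per comparison, the 5 highest and lowest levels, the P-stalk genes and Rpsa, the paralogue families, Rps19bp1, Rpl7l1, Rps6 and Rpl10, up to 4 genes with the lowest p per list and the 5 genes of most similar pattern. Rps2 and Rpl37, and the members beyond the 5 largest rises, were named after their values were seen. Between any 2 libraries at most 0.882% of tested genes had identical values. Some genes are counted in the totals but not reported here by name, and 1 member is left out of the plots of single genes.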

Additional observations from a re-analysis of the deposited data

Results flagged for a closer look

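The outlier test covered 99 sets of 8 libraries, for the named ribosomal protein genes and for the summed level of the 83 genes in each group. In 10 of them, all for single genes, 1 library had a gap to its nearest neighbour that exceeded Dixon's 95% critical value for 8 samples. Chance flags about 1 in 20 groups, and these genes move together within a library, so the flags are not independent. In vutiglabridin replicate 4, 3 genes stood high, with Rpl10 at 119.67 FPKM (next 99.17), Rpl8 at 265.24 FPKM (next 217.64) and Rps2 at 196.31 FPKM (next 157.94). In semaglutide replicate 5, 4 genes stood high, with Rpl22 at 53.48 FPKM (next 42.83), Rpl39 at 35.5 FPKM (next 24.44), Rps2 at 177.42 FPKM (next 134.73) and Rps27 at 134.96 FPKM (next 102.19). The other 3 were Rps19bp1, low at 7.09 FPKM in vehicle replicate 5 (next 9.74), Rpl36al, high at 2.38 FPKM in semaglutide replicate 4 (next 1.65), and Rps10, high at 0.88 FPKM in semaglutide replicate 3 (next 0.6).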

How the results depend on the processing

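For 24 gene results under 40 alternatives, 829 of 960 values kept their direction and side of the threshold, 85 lost the call, 45 gained it, and 1 turned, Rpl4 between the drugs with quantile normalization (-0.018). The counts of genes higher and lower moved as follows. In TPM, semaglutide against vehicle had 2 higher and 5 lower, the drugs 1 higher and 8 lower, and the median of vutiglabridin against vehicle was -0.062. Quantile normalization gave 2 higher and 12 lower between the drugs (10.4% and 11.6% of all genes). Median centring gave 2 higher for vutiglabridin (7.93% of all genes). Centring on the ribosomal protein genes gave 2 higher and 4 lower for semaglutide against vehicle (3.17% and 7.72% of all genes). Between the drugs it gave 1 lower (3.93% of all genes). Removing GC and length trends gave 6 higher for vutiglabridin, 27 higher for semaglutide, and 3 higher and 10 lower between the drugs. The shares of all genes for these counts and for those in TPM are given above. Sample weights gave 1 higher for vutiglabridin, 4 lower for semaglutide and 9 higher between the drugs. Of all genes 15.52%, 32.62% and 25.32% were then called in either direction. In the same comparisons the Wilcoxon test gave 1 higher, 4 higher and 1 lower, and 2 higher. With that test 10.51%, 24.84% and 17.44% of all genes were called in either direction. Fits of only 2 groups gave 1 higher for vutiglabridin and 3 higher between the drugs, with 14.0% and 21.1% of all genes called in either direction. The causes were not tested.

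After subtracting group means, same-numbered libraries had correlations from -0.25 to 0.29, 11 of 24 above 0.1, and 4 of 24 correlated best with their own number. These values do not settle whether replicate numbers pair the samples. With a replicate block, 0 genes passed for vutiglabridin, 7 were higher and 3 lower for semaglutide, and 7 higher and 2 lower between the drugs. Of all genes 14.9%, 26.6% and 23.8% were called in these comparisons. The block with GC and length trends removed gave 6 higher for vutiglabridin, 29 higher for semaglutide and 9 lower between the drugs. In those fits 18.7%, 27.9% and 24.2% of all genes were called in either direction.

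Leaving out 1 library at a time gave 0 to 2 genes higher and 0 lower for vutiglabridin, 5 to 11 higher and 1 to 5 lower for semaglutide, and 4 to 15 higher and 2 to 3 lower between the drugs. The medians ran from 0.06 to 0.11, from -0.01 to 0.07 and from -0.01 to 0.09. The shares of all genes called in the rest of this paragraph count both directions. They are therefore not like for like with a count of genes in 1 direction. Genes higher with vutiglabridin numbered 2 without vehicle replicate 7 or semaglutide replicate 5, and 1 without semaglutide replicate 1 or 7. Of all genes 11.2% were called without vehicle replicate 7 and 15.4% without each of those semaglutide replicates. Genes higher with semaglutide numbered 5 without vehicle replicate 5, semaglutide replicate 5 or semaglutide replicate 7, with 26.5%, 28.3% and 26.8% of all genes called. Genes lower with semaglutide numbered 5 without semaglutide replicate 5 and 1 without vehicle replicate 7 or 8 or semaglutide replicate 1 or 8. Of all genes 28.3% were called in the first of these fits and 23.3% to 27.0% in the others. Between the drugs 15 genes were higher without semaglutide replicate 5 (27.3% of all genes called) and 8 without replicate 7 (23.2%). Without both replicates, chosen after seeing the data, 2 were higher for vutiglabridin and 4 higher and 13 lower for semaglutide. Between the drugs 24 were then higher and 1 lower. Of all genes 16.0%, 29.6% and 26.9% were called in these 3 comparisons. Depth limits most the genes near 0.5 FPKM (Rpl24, Rps10 and Rps27rt).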
